A study of Rattus norvegicus with 20 samples.

Results

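The let-7 family guide strands are 8 of the 719 rat miRNAs on the arrays: rno-let-7a-5p, rno-let-7b-5p, rno-let-7c-5p, rno-let-7d-5p, rno-let-7e-5p, rno-let-7f-5p, rno-let-7i-5p and rno-miR-98-5p. The rule took them by name, as the family's strands that are loaded into the silencing complex, with earlier results of these data known. MicroRNA was measured in kidneys of male Wistar rats weighing 80 to 100 g. Rats received intraperitoneal aristolochic acid I (AAI, a plant nitrophenanthrene acid that is toxic to the renal tubule and damages DNA) at 40 mg per kg, and kidneys were taken on day 2, 4 or 6. Vehicle rats received PEG400 mixed with water on the same schedule, and only their day 6 kidneys were used. The labels do not say whether AAI was given once or repeatedly. With 5 kidneys in each of 4 groups and 1 array per kidney, read in the Cy3 channel, there were 20 arrays.

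The let-7 miRNAs were among the earliest found in animals. Family members share the seed, the stretch near the 5′ end that pairs with target mRNAs, and they repress cell cycle and growth genes such as RAS and HMGA2. Their processing from precursors is blocked by the LIN28 proteins, and let-7 is known as a mark of differentiated tissue, in which it is usually abundant. The members come from several clusters, some of which also make miR-99, miR-100 and miR-125, so that several of these miRNAs share a transcript.

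The mature sequences, from RefSeq on the GRCr8 build, are shown because the members differ so little that each can bind the probes of another. Bases 2 to 8, the seed, are in capitals.
rno-let-7a-5p: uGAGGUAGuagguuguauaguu
rno-let-7b-5p: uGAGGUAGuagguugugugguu
rno-let-7c-5p: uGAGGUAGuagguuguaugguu
rno-let-7d-5p: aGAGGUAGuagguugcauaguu
rno-let-7e-5p: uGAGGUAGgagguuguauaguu
rno-let-7f-5p: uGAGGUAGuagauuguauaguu
rno-let-7i-5p: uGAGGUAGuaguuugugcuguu
rno-miR-98-5p: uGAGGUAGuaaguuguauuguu

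All 8 members were 22 bases long and had the seed GAGGUAG. Of the 641 array miRNAs whose names matched a RefSeq mature sequence, the 8 members were the only ones with that seed. Counting positions from 1 at the 5′ end and taking let-7a-5p as the starting sequence, let-7c-5p differed by A19G, let-7e-5p by U9G and let-7f-5p by G12A. let-7b-5p carried A17G and A19G, let-7d-5p carried U1A and U16C, and miR-98-5p carried G11A and A19U. let-7i-5p stood farthest off, with G12U, A17G, U18C and A19U. rno-let-7g-5p, a further member in RefSeq, had no entry of that name on the array and was not analysed here.

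In GRCr8, 11 loci give these 8 mature sequences. On chromosome 17, the mature let-7a-5p of Mirlet7a1 (16320145 to 16320166), the let-7f-5p of Mirlet7f-1os (16320508 to 16320529) and let-7d-5p (16322273 to 16322294) all lie on the plus strand, and their hairpins span 2.225 kb. On chromosome 7, a let-7c-5p copy (118683636 to 118683657) and let-7b-5p (118684044 to 118684065) lie on the plus strand with 326 bases between their hairpins, while let-7i-5p (60527935 to 60527956, minus strand) has no member near it. On chromosome X, a let-7f-5p copy (24460052 to 24460073) and miR-98-5p (24460663 to 24460684) are neighbours on the plus strand. The other 3 loci stand beside miR-99, miR-100 or miR-125 genes. let-7e-5p (chromosome 1, 67350243 to 67350264, plus strand) lies between Mir99b and Mir125a, whose outer ends are 0.696 kb apart. The second let-7c-5p copy (chromosome 11, 29688127 to 29688148, plus strand) lies 639 bases after Mir99a, and the second let-7a-5p copy (chromosome 8, 50805219 to 50805240, plus strand) lies 6828 bases after Mir100.

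The array read each member with 2 probes of 10 spots each, 16 probes of 18 to 22 bases. Each probe was the exact reverse complement of its own miRNA from its 3′ end, and only 4 of the 16 reached over the whole seed, which all members share. The first base, where let-7d-5p differs, was outside its probes. Of the 16 probes, 12 had a single mismatch to some other of the 8 members, 2 (those of miR-98-5p) had at least 2, and 2 (those of let-7i-5p) had at least 3, but only 2 to let-7g-5p. The probes of let-7a-5p, for example AACTATACAACCTACTACCT, had 1 mismatch to 4 other members, let-7c-5p, let-7d-5p, let-7e-5p and let-7f-5p. Cross-binding between members was not measured by these arrays, and the level given for a member is that of its probes. Both probes of a member gave nearly the same change, with at most 0.03 log2 units between them in AAI day 6 kidneys against vehicle. The 2 probes of a member have nearly the same sequence, so their likeness does not bear on cross-binding. Of the 160 member spots on an array, 1 to 11 carried an outlier flag and 0 were saturated.

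All 8 members were detected on 20 of 20 arrays. In vehicle kidneys, let-7a-5p held 5.60% of the summed signal of all miRNAs, let-7c-5p 5.33%, let-7f-5p 5.24%, let-7b-5p 4.50% and let-7d-5p 1.84%. Over the 20 arrays, let-7a-5p, let-7b-5p, let-7c-5p and let-7f-5p ranked between 2 and 7 by signal among all miRNAs, and let-7d-5p between 14 and 20. let-7i-5p ranked 34 to 40, let-7e-5p 37 to 46 and miR-98-5p 72 to 90. Probes differ in how strongly they bind, so this order is one of signal and not of copies per cell.

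Across the array, the 262 miRNAs that some group had detected in all 5 of its kidneys were tested, and 250 to 328 were detected on an array. Total miRNA signal ran from 126471 to 230674 intensity units. AAI day 4 array 2 stood apart, with the highest total and the most miRNAs detected. The arrays sat on 3 slides: slide 1 carried all 5 of AAI day 6 with 3 of AAI day 4, slide 2 carried all 5 of AAI day 2 with the remaining 2 of AAI day 4 and 1 of vehicle, and slide 3 the other 4 of vehicle. No slide held both day 6 and vehicle arrays. Of 6 listed kidney tubule miRNAs, 5 were detected on every array, among them miR-192-5p, miR-194-5p and miR-204-5p, and rno-miR-215 on none. Unless another fit is named, p-values below rest on the spread between kidneys within a group, pooled over the 4 groups of 5. They do not cover differences between slides.

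The family's mean share of the total miRNA signal was lower in AAI day 4 and day 6 kidneys than in vehicle kidneys. It was 24.4, 24.6, 24.2, 23.2 and 25.3% on the vehicle arrays, 23.9, 24.7, 24.0, 23.2 and 24.2% on the AAI day 2 arrays, 21.2, 16.8, 23.1, 23.6 and 22.8% on the AAI day 4 arrays, and 20.7, 22.4, 20.6, 20.7 and 22.0% on the AAI day 6 arrays. All 5 AAI day 6 arrays lay below all 5 vehicle arrays, whereas the AAI day 2 and vehicle arrays overlapped. The means were 24.3 ± 0.73% in vehicle, 24.0 ± 0.52% on AAI day 2, 21.5 ± 2.76% on day 4 and 21.3 ± 0.84% on day 6 (SD, n = 5 each). AAI day 4 array 2 had the lowest share of all, and the other 4 day 4 arrays averaged 22.7 ± 1.06%. The day 6 difference from vehicle was -3.05 percentage points. With normexp background correction the difference was -1.75, from shares of 13.4% on day 6 and 15.2% in vehicle. The level of the share thus depends on the processing too. It was 16.1% on day 6 and 18.0% in vehicle, a difference of -1.93, with the scanner software's own totals per miRNA. Those totals were over 10 times the sum of the miRNA's own probes for 81 of 719 miRNAs on at least 1 array, which adds to the total that the share is taken of. The share needs no scaling between arrays, but being a sum over named members it is a description with no test. On slide 1 the 5 AAI day 6 arrays had shares of 20.6 to 22.4%, against 22.8 to 23.6% on the 3 AAI day 4 arrays. On slide 2 the 2 AAI day 4 arrays had 16.8 and 21.2%, against 25.3% on the 1 vehicle array.

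**Figure D1:**
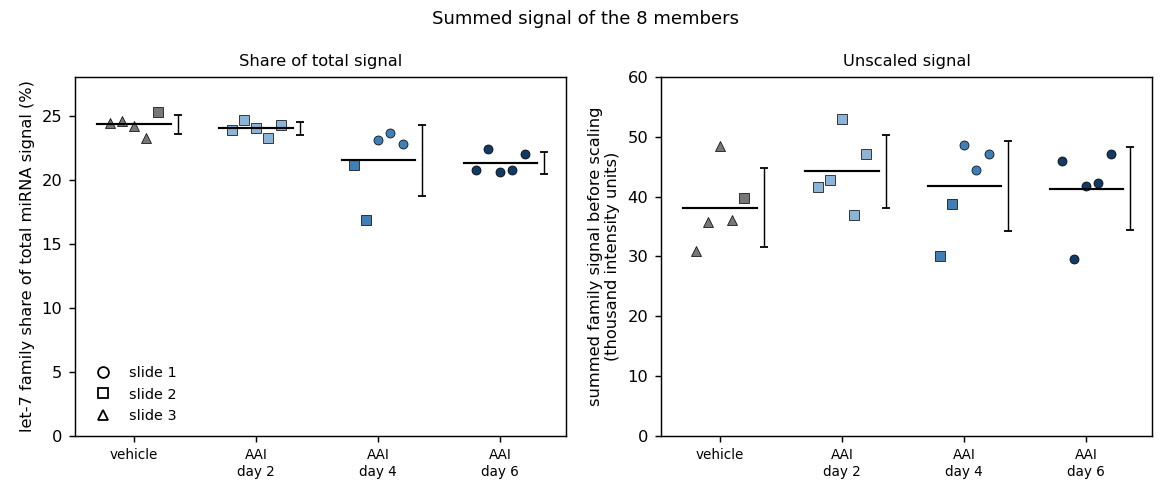
Summed signal of the 8 let-7 family guide strands on each array, as a percent of the signal of all miRNAs (left) and in intensity units before any scaling (right). Points are arrays, the marker shape gives the slide, lines are means and bars are SD (n = 5). The share is lower on all AAI day 6 arrays (20.6 to 22.4%) than on the vehicle arrays (23.2 to 25.3%), while the unscaled family signal of the groups overlaps.

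The lower share did not come with a lower unscaled family signal. Summed over the 8 members, the signal before scaling averaged 38181 ± 6584 units in vehicle, 44259 ± 6073 on AAI day 2, 41815 ± 7511 on day 4 and 41337 ± 6977 on day 6 (SD, n = 5 each), which is 1.16, 1.095 and 1.08 times vehicle. The signal of all miRNAs together was 1.17, 1.25 and 1.24 times vehicle on the same days. A share is a part of a whole, and the same share can follow from more of other miRNAs. miR-21-5p, a miRNA known to be raised in injured kidney and named here after its values were seen, held 5.96% of the signal on AAI day 6 and 2.45% in vehicle, a difference of 3.51 percentage points. miR-3473, also named after its values were seen, held 2.57% on AAI day 6 and 0.561% in vehicle, and the rises of all miRNAs together came to 9.53 points. The falls together came to -9.32 points, and 32.8% of them came from the 8 members, which held 24.3% of the vehicle signal. With miR-21-5p left out of the total, an alternative added after seeing the data, the family held 22.6% on AAI day 6 and 24.9% in vehicle. In whole-kidney RNA, fewer cells of a type and less RNA per cell cannot be told apart.

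After scaling each array to its 75th percentile signal, all 8 members had lower mean levels in AAI day 6 kidneys than in vehicle kidneys, and let-7b-5p, let-7d-5p and let-7e-5p passed the test. The comparison asked which miRNAs differ between AAI and vehicle kidneys, with those of both groups taken on day 6. The scale is log2 of the signal over that percentile, so that 1 unit is a doubling, and the test was limma's moderated test with Benjamini-Hochberg adjustment over all 262 miRNAs, called at an adjusted p under 0.05. Of the 8 members, 3 were called lower and 0 higher, against 49 of 262 miRNAs called lower (18.7%) and 19 called higher. In 5 of the 8, let-7a-5p, let-7b-5p, let-7d-5p, let-7e-5p and let-7f-5p, all AAI day 6 arrays lay below all vehicle arrays, which held for 19.1% of the tested miRNAs. The median change was -0.25 over the members and -0.11 over all tested miRNAs, and 64.5% of these had a negative change.

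The largest change was that of let-7e-5p, which is made beside miR-99b and miR-125a. On the log2 scale its level was 1.37, 1.55, 1.19, 1.16 and 1.52 on the AAI day 6 arrays, against 1.63, 1.67, 1.87, 1.75 and 1.80 on the vehicle arrays. The groups did not overlap, and arrays 3 and 4 of AAI day 6 were the lowest. The change was -0.39 ± 0.12 (SE; 95% interval -0.64 to -0.14; limma adjusted p = 0.0209), a level 23.6% lower. On AAI day 4 its levels were 1.26, 0.96, 1.62, 1.69 and 1.58, and on AAI day 2 they were 1.68, 1.71, 1.60, 1.57 and 1.72. Day 4 arrays 1 and 2 lay far below vehicle while the other 3 lay within or next to its range.

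let-7d-5p, the member with a different first base, had the smallest p of the family. Its log2 level was 2.69, 2.68, 2.48, 2.57 and 2.74 on the AAI day 6 arrays, against 2.95, 2.97, 2.96, 2.95 and 3.07 on the vehicle arrays. Vehicle arrays 1 to 4 were nearly equal, array 5, the only one on slide 2, was the highest, and the groups were well apart. The change was -0.35 ± 0.09 (SE; interval -0.55 to -0.15; limma adjusted p = 0.00857). Its levels were 3.03, 2.88, 2.69, 2.89 and 2.90 on AAI day 2 and 2.58, 2.42, 2.79, 2.99 and 2.84 on AAI day 4.

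let-7b-5p, which shares a chromosome 7 cluster with let-7c-5p, was 3.84, 4.08, 3.88, 3.89 and 4.07 on the AAI day 6 arrays, against 4.15, 4.24, 4.38, 4.23 and 4.29 on the vehicle arrays (log2 level). The highest AAI day 6 array was close to the lowest vehicle array, with no overlap. The change was -0.30 ± 0.09 (SE; interval -0.50 to -0.11; limma adjusted p = 0.0206). On AAI day 2 its levels were 4.20, 4.29, 4.12, 4.07 and 4.24, and on day 4 they were 3.92, 3.65, 4.17, 4.19 and 4.02.

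The remaining 5 members did not pass the test on AAI day 6. let-7a-5p, whose probes are within 1 base of 4 other members, had log2 levels of 4.33, 4.47, 4.16, 4.20 and 4.45 on the AAI day 6 arrays, against 4.54, 4.53, 4.61, 4.56 and 4.66 on the vehicle arrays. Its change was -0.26 ± 0.10 (SE; limma adjusted p = 0.0563), with no overlap of the groups. let-7f-5p ran from 4.05 to 4.40 on the AAI day 6 arrays, against 4.41 to 4.59 on the vehicle arrays, a change of -0.24 ± 0.11 (SE; limma adjusted p = 0.104). let-7c-5p ran from 4.19 to 4.45 on the AAI day 6 arrays, against 4.43 to 4.56 on the vehicle arrays, a change of -0.22 ± 0.09 (SE; limma adjusted p = 0.0772). For let-7c-5p the highest AAI day 6 array lay above the lowest vehicle array. miR-98-5p, the dimmest member, ran from -0.82 to -0.52 on the AAI day 6 arrays, against -0.56 to -0.40 on the vehicle arrays, with a change of -0.17 ± 0.10 (SE; limma adjusted p = 0.186).

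let-7i-5p, the member with the most base differences from let-7a-5p, had the smallest change. Its log2 level was 1.89, 1.81, 1.52, 1.67 and 1.86 on the AAI day 6 arrays, against 1.82, 1.85, 1.87, 1.78 and 1.89 on the vehicle arrays. The groups overlapped widely, and AAI day 6 arrays 3 and 4 were the lowest. The change was -0.09 ± 0.09 (SE; interval -0.29 to 0.11; limma adjusted p = 0.476).

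**Figure D2:**
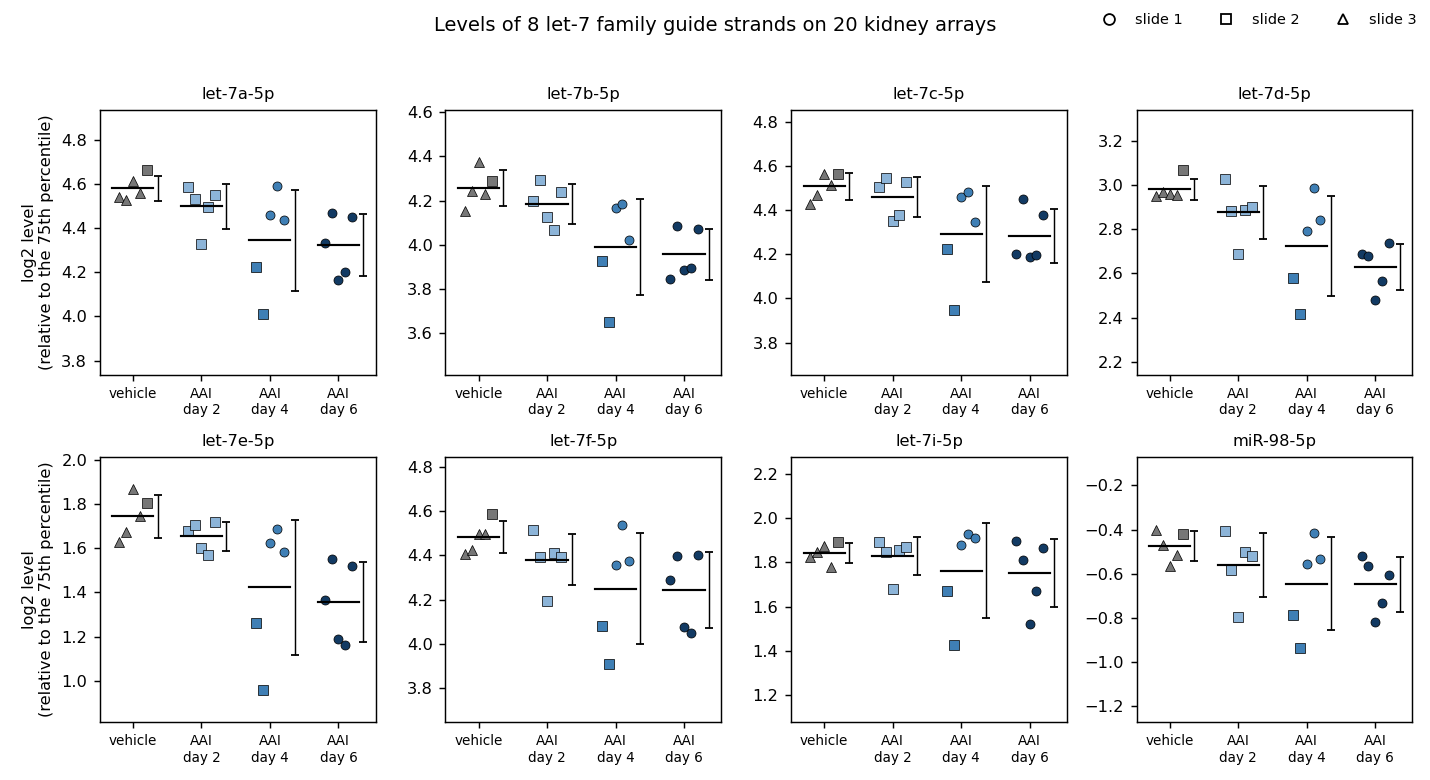
Log2 level of each member, relative to the 75th percentile signal of the array, on 20 arrays. Each panel spans the same 1.2 log2 units, points are arrays with the slide as marker shape, lines are means and bars are SD (n = 5). The 2 lowest AAI day 4 arrays in every panel are the arrays of that group on slide 2, and let-7i-5p keeps the AAI day 6 mean closest to that of vehicle.

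The call count on AAI day 6 was sensitive to how arrays were scaled and to single arrays. Without scaling, the median change was 0.12 over the members and 0.26 over all tested miRNAs, and 7 of the 8 member changes were positive. That scale called 0 members, where it called 1 of 262 miRNAs lower and 33 higher. A single factor per array moves every miRNA alike, so the distance of the members' median from that of all miRNAs (-0.14) is the same under each such scale. It did change under methods that reshape each array: the members' median lay 0.015 above that of all miRNAs with quantile normalization and 0.049 above it with the deposited series table, with 2 members called lower under each, against 44 and 38 of 262 miRNAs. Without vehicle array 3 or without AAI day 6 array 3, 1 member, let-7d-5p, was called, against 45 of 262 and 40 of 263 miRNAs called lower. With slide as a fixed block all 8 members were called lower (median change -0.69), with 60 of 262 miRNAs called lower and 30 higher, but that fit rests on the 1 vehicle array and the AAI day 4 arrays of slide 2. With AAI day 4 array 2 also left out, it called none of 264 miRNAs in either direction, while the members' median was -0.57 and that of all miRNAs -0.15. With slide as a random block 6 members were called lower, against 46 of 262 miRNAs.

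The day 4 and day 2 kidneys were set against the day 6 vehicle kidneys, so treatment and day cannot be told apart there. On AAI day 4, 0 of 8 members were called in either direction, although 6 had an unadjusted limma p under 0.05. Of all 262 miRNAs, 3 were called lower (1.15%), 6 higher, and 58 had an unadjusted p under 0.05. All 8 changes were negative, between -0.32 for let-7e-5p (SE 0.12; limma adjusted p = 0.140) and -0.08 for let-7i-5p (SE 0.09; limma adjusted p = 0.627), with a median of -0.23 against -0.07 over all tested miRNAs. No member had all AAI day 4 arrays below all vehicle arrays, which held for 3.82% of the tested miRNAs. The group split by slide: the 3 arrays on slide 1 had a mean log2 level over the 8 members of 2.87 to 2.998, against 2.42 and 2.65 on the 2 on slide 2. The vehicle arrays of slides 2 and 3 ran from 2.94 to 3.06 by the same measure. Slide and spread between kidneys cannot be told apart within this group. With slide as a fixed block, 5 members were called lower on AAI day 4 (median change -0.52), against 9 of 262 miRNAs. Once AAI day 4 array 2 was left out, that fit called none of 264 miRNAs in either direction, with a median change of -0.40 over the members. Without AAI day 4 array 4, the highest of the group, 1 member, let-7d-5p, was called, against 8 of 264 miRNAs called lower.

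On AAI day 2, 0 of 8 members were called and 0 had an unadjusted limma p under 0.05, against 29 of all 262 miRNAs. None of the 262 was called lower (0%) and 4 were called higher. All 8 changes were negative but small, between -0.10 for let-7d-5p (SE 0.09; limma adjusted p = 0.776) and -0.01 for let-7i-5p (SE 0.09; limma adjusted p = 0.943), with a median of -0.08 against -0.04 over all tested miRNAs. Their 95% intervals together ran from -0.34 to 0.18. Groups without overlap, seen in 2.29% of the tested miRNAs, occurred for none of the members. The direction of these small changes depended on the scaling: without scaling and with the labelling spike-in as the scale all 8 were positive. All 3 comparisons use the same 5 vehicle arrays, so the shared negative sign is not 3 separate observations.

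**Figure D3:**
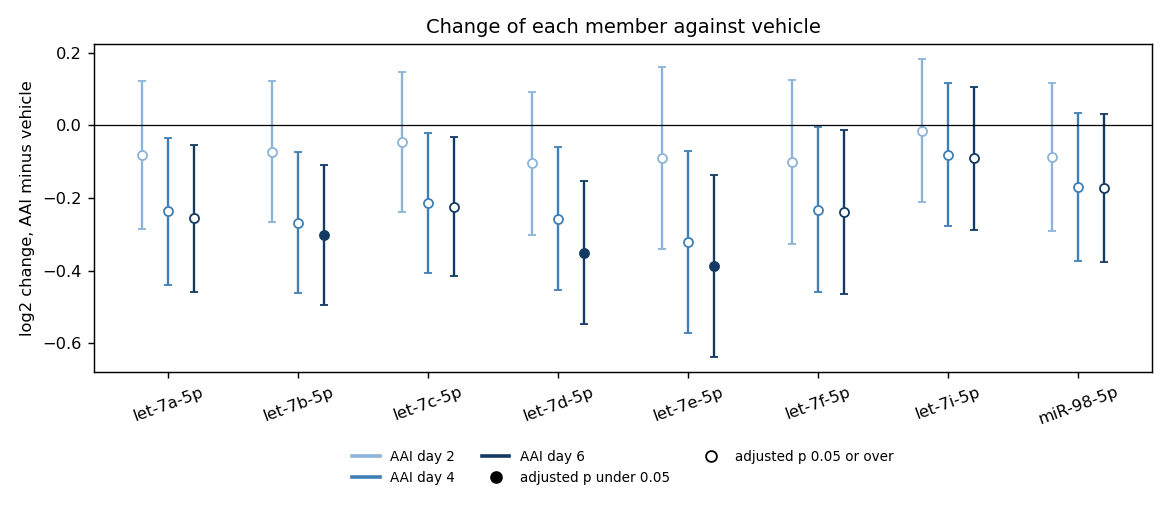
Log2 change of each member in AAI kidneys against vehicle on days 2, 4 and 6, with 95% intervals from limma (n = 5 per group). Filled points passed an adjusted p under 0.05. These are let-7b-5p, let-7d-5p and let-7e-5p on day 6, and let-7i-5p lies nearest 0 on all 3 days.

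Between AAI days no member was called by limma. AAI day 6 against AAI day 2 gave changes of -0.30 (let-7e-5p; SE 0.12; limma adjusted p = 0.114) to -0.08 (let-7i-5p). At an unadjusted limma p under 0.05 were 3 members, against 69 of the 262 miRNAs, and 20 of the 262 were called lower (7.63%). let-7e-5p was the only member whose day 6 arrays all lay below its day 2 arrays, which held for 7.25% of the tested miRNAs. AAI day 6 against AAI day 4 gave changes of -0.09 to 0.00, with 0 members at an unadjusted p under 0.05, against 24 of the 262 miRNAs. Of these 262, 0.382% were called lower. AAI day 4 against AAI day 2 gave -0.23 to -0.07, with 1 member at an unadjusted p under 0.05, against 20 of the 262 miRNAs. In that comparison 0% of the miRNAs were called lower. With slide as a fixed block 8 members were called lower for day 6 against day 2, against 67 of 262 miRNAs, and 6 for day 4 against day 2, against 23 of 262. Once AAI day 4 array 2 was left out, that fit called none of 264 miRNAs in either comparison, with median changes over the members of -0.44 and -0.27.

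Within the family, the ratios of let-7i-5p and let-7e-5p to let-7a-5p stood apart from vehicle on AAI day 6, in opposite directions. Ratios of signals on the same array do not depend on scaling, and they are given as descriptions with no test. How often ratios of other miRNA pairs stood apart from vehicle was not counted, so the separations below cannot be called unusual. The ratio of let-7i-5p to let-7a-5p was 0.184, 0.158, 0.160, 0.173 and 0.166 on the AAI day 6 arrays, against 0.152, 0.156, 0.150, 0.146 and 0.147 on the vehicle arrays. All AAI day 6 and all AAI day 4 arrays lay above all vehicle arrays, and the means were 1.12 and 1.11 times that of vehicle, with 1.05 times on AAI day 2. The ratio of let-7e-5p to let-7a-5p was 0.128, 0.132, 0.127, 0.122 and 0.131 on the AAI day 6 arrays, against 0.133, 0.138, 0.150, 0.143 and 0.138 on the vehicle arrays. Again the groups did not overlap, this time with AAI day 6 below, at 0.913 times the vehicle mean. These ratios show unequal change, and not which of the pair changed.

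In shares of the family's own signal, let-7i-5p took 3.63 to 4.33% on AAI day 6, against 3.33 to 3.57% in vehicle, and let-7e-5p took 2.79 to 3.06% on AAI day 6, against 3.13 to 3.41% in vehicle. let-7d-5p relative to let-7a-5p was 0.937 times vehicle on AAI day 6, with overlapping groups. let-7b-5p relative to let-7c-5p, the pair from neighbouring chromosome 7 hairpins that differ by 1 base, was 0.776 to 0.812 on AAI day 6, against 0.822 to 0.877 in vehicle, with no overlap. let-7f-5p relative to let-7a-5p, 2 members of the chromosome 17 cluster, was 0.901 to 0.970 on AAI day 6 and 0.912 to 0.958 in vehicle.

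**Figure D4:**
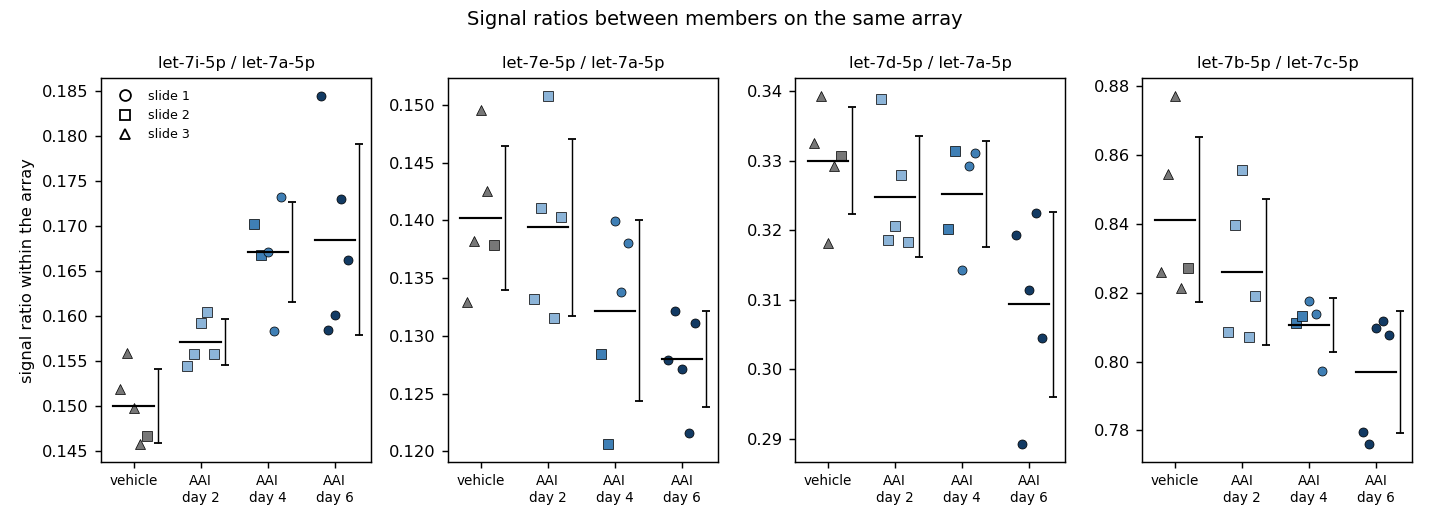
Ratio of the signals of 2 members on the same array, for 4 pairs, by group. Points are arrays with the slide as marker shape, lines are means and bars are SD (n = 5), and the axes do not start at 0. The ratio of let-7i-5p to let-7a-5p is higher on AAI days 4 and 6 (1.11 and 1.12 times vehicle), whereas that of let-7e-5p to let-7a-5p is 0.913 times vehicle on day 6.

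Over the 20 arrays, members went up and down together. Pearson's r of log2 levels over the 28 member pairs had a median of 0.90 and ran from 0.68 (let-7b-5p with miR-98-5p) to 0.98 (let-7a-5p with let-7f-5p). Over the 26565 pairs of the 231 miRNAs detected on all arrays the median r was 0.14 and the 90th percentile 0.71. These correlations share arrays, scaling and, for probes 1 base apart, possibly targets, and are given without p. With group means removed, the members' median r was 0.90 too, so the members also went together among arrays of the same group. Over all pairs the median was then 0.18 and the 90th percentile 0.73. The spread left within groups was uneven. The SD of the members' mean log2 level was 0.23 on AAI day 4, the group that split by slide. It was 0.05 in vehicle, 0.09 on AAI day 2 and 0.13 on AAI day 6. The part of slides and of single arrays in the r within groups was not tested. Of the 7 miRNAs most like each member over the 20 arrays, only 2 to 5 were members, so other miRNAs moved with them as closely.

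Likeness went partly with sequence. The 4 pairs that differ by 1 base had r of 0.96 to 0.98, the 7 that differ by 2 bases had 0.77 to 0.97, the 9 that differ by 3 had 0.68 to 0.96, and the 6 that differ by 4 had 0.78 to 0.90. let-7d-5p and let-7i-5p, 6 bases apart, had r = 0.82, above several closer pairs. The member nearest to let-7b-5p was let-7c-5p (r = 0.98), and the one nearest to let-7e-5p was let-7c-5p (r = 0.97). For let-7d-5p and let-7i-5p the nearest miRNA on the array was no member: miR-151-5p (r = 0.97) and miR-143-3p (r = 0.94), whose sequences do not have the let-7 seed.

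**Figure D5:**
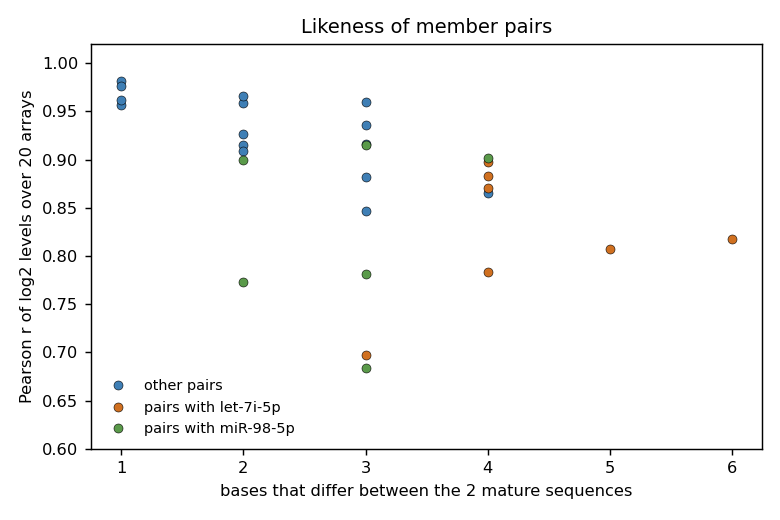
Pearson's r of log2 levels over 20 arrays for each of the 28 member pairs, against the number of bases that differ between their mature sequences. Pairs that differ by 1 base lie at 0.96 to 0.98, and the lower values belong mostly to pairs with let-7i-5p or miR-98-5p.

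The miRNAs outside the family whose levels were most like the mean log2 level of the 8 members, among 223 others detected on all arrays, were miR-151-5p (r = 0.95), miR-99b-5p (0.94), miR-352 (0.94), miR-186-5p (0.92) and miR-24-3p (0.92). Of these, miR-99b-5p is encoded next to let-7e. On AAI day 6 miR-151-5p changed by -0.37 (SE 0.08; limma adjusted p = 0.00305) and miR-352 by -0.23 (SE 0.08; limma adjusted p = 0.0389), while miR-186-5p and miR-24-3p were not called. The 5 least like were miR-3557-3p (r = -0.82), miR-3584-5p (-0.81), miR-150-3p (-0.80), miR-328a-5p (-0.80) and miR-6216 (-0.75), all dim, with at most 0.179% of the vehicle signal each.

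Several miRNAs made from the same clusters as let-7a, let-7c and let-7e were lower on AAI day 6 as well. The list held 12 names, of which 11 were on the array and 8 were tested, and 6 of these were called lower on AAI day 6, against 18.7% of all tested miRNAs, with 0 called on day 4 and 0 on day 2. The median change on AAI day 6 was -0.32. miR-125a-5p, encoded beside let-7e, changed by -0.34 (SE 0.08; limma adjusted p = 0.00325), and miR-99b-5p, on its other side, by -0.32 (SE 0.09; limma adjusted p = 0.0128). miR-100-5p, encoded near a let-7a copy, changed by -0.34 (SE 0.08; limma adjusted p = 0.00401). miR-99a-5p, beside a let-7c copy, changed by -0.31 (SE 0.09; limma adjusted p = 0.0118), and miR-125b-5p, which comes from 2 loci, by -0.19 (SE 0.06; limma adjusted p = 0.0323). The sixth was the dim miR-99a-3p at -0.57 (SE 0.15). The other 2 tested, miR-125a-3p (0.46, SE 0.29) and miR-99b-3p (0.04, SE 0.29), are the opposite strands of the let-7e cluster and did not pass the test.

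The opposite (passenger) strands of the family gave little signal. Of 9 on the array, 3 were tested and 0 of the 3 were called on any day. rno-let-7b-3p had an unadjusted limma p under 0.05 on AAI days 6 and 4, as had 108 and 58 of all 262 miRNAs. let-7b-3p changed by -0.35 (SE 0.14; limma adjusted p = 0.0658), let-7d-3p by -0.25 (SE 0.17) and let-7a-1-3p by -0.14 (SE 0.11) on AAI day 6. Mean signal was 38.3 units for let-7b-3p on AAI day 6 and 37.6 units in vehicle, and the 9 strands together held 0.0543 to 0.0690% of the signal on AAI day 6 and 0.0609 to 0.0786% in vehicle. The other 6 were detected on 0 arrays.

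Some markers of other cells were also lower on the AAI day 6 arrays, where 18.7% of all tested miRNAs were called lower, and their part in the family's change was not tested. Listed tubule miRNAs, other than the undetected rno-miR-215, made up 4.08 to 4.94% of the signal on AAI day 6, against 4.90 to 5.48% in vehicle, and 4 of 5 tested were called lower. Leukocyte miRNAs, 6 of 6 on the array tested, held 0.640 to 0.851% on AAI day 6, against 0.907 to 1.03% in vehicle, with 2 called lower. Erythrocyte miRNAs held 0.0120 to 0.0463% on AAI day 6, against 0.0920 to 0.328% in vehicle, and the 1 of 3 tested, miR-451-5p, was called lower (-2.73, SE 0.34; limma adjusted p = 1.6e-05). miR-144-3p was detected on 0 AAI day 6 arrays and 3 vehicle arrays, and miR-144-5p on 0 arrays of either group. Endothelial miRNAs (2 of 2 tested, 0 called) held 1.82 to 2.06% on AAI day 6, against 2.02 to 2.23% in vehicle. Stromal and smooth muscle miRNAs (5 of 5 tested, 1 called lower) held 1.89 to 2.17% on AAI day 6, against 2.06 to 2.23% in vehicle. miRNAs of liver, muscle, brain and pancreas (8 listed, 3 tested, 0 called) held 0.0503 to 0.0997% on AAI day 6, against 0.0336 to 0.0797% in vehicle.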

How the data were processed

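Kidney RNA was labelled with Cy3 and read on 1-colour Agilent miRNA arrays, 1 per kidney, per the labels. Feature Extraction 10.7.1.1 read the spots, per the file headers. The spot values the authors deposited are background-subtracted fluorescence intensity (arbitrary units), not scaled between arrays. Deposited flags for detection and outlier spots are of the other kind (0 or 1). A series table, also deposited, gives log2 values of 740 entries, with column medians of -3.32 to -3.01. Its scale, centring and making are not given in the sources used here, so it served as an alternative. Columns not matched to a sample numbered 0.

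Spot intensities of a probe were averaged, flagged spots left out, and probes of 1 miRNA were summed. Each sum was divided by the array's 75th percentile over the 231 miRNAs detected on all 20 arrays, set to a floor of 0.00640 (12 tested values) and log2-transformed. Linear models with 1 mean per group were fitted in limma (3.58.1, under R 4.3.3), with 16 residual degrees of freedom and two-sided tests. The 262 miRNAs tested were those with detection in all 5 kidneys of some group. The procedure was tested on simulated data. These were drawn independently for each miRNA and array, with no slide effect, so they do not cover slides or linked miRNAs. Shares used unscaled signal. The number of arrays limits the precision.

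The 8 members are all named. Beside them the rule names passenger strands, cluster-mates (miR-99, miR-100 and miR-125), and the 5 miRNAs most and least like the family's mean level. The members and lists were chosen with earlier results of these data known. Sequences are from RefSeq (GRCr8) and the array files. Alternatives covered scaling, background correction (normexp, offset 50), probe summaries, detection filters, the floor (2 times), variance model, slide and replicate as blocks, the deposited series table, and leaving out each array.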

Additional observations from a re-analysis of the deposited data

Results flagged for a closer look

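Groups of 5 arrays in which 1 array stood far from the others were looked for among 68 groups of values. Chance flags about 1 in 20 such groups, and 3 were found.

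let-7d-5p in vehicle was flagged because array 5, at a log2 level of 3.07, lay apart from the other 4 vehicle arrays at 2.95 to 2.97. The gap was 0.845 of the group's range, above the limit of 0.71 for 5 values. That array was the only vehicle array on slide 2, and the part of the slide in its level was not tested.

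let-7i-5p on AAI day 2 was flagged because array 3, at a log2 level of 1.68, lay below the other 4 at 1.85 to 1.89. The gap was 0.787 of the range.

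The share of let-7i-5p in the family's signal on AAI day 2 was flagged because array 4, at 3.77%, lay above the other 4 at 3.53 to 3.60%. The gap was 0.711 of the range, just above the limit.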

How the results depend on the processing

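Of the changes of single members against vehicle recomputed under the alternatives, 681 of 784 kept their direction and side of the threshold, 22 lost the call, 18 gained it and 63 changed sign. On AAI day 6 against vehicle, the count of 3 members called became 0 with no scaling, with the median of miRNAs detected on all arrays as the scale, with the labelling spike-in as the scale, with the software's total gene signal (for 81 miRNAs far above their own probes), and with slide as a fixed block without AAI day 4 array 2. In that order, 1, 11, 3 and 4 of 262 miRNAs, and 0 of 264, were called lower. The main processing called 49 of 262 lower, so the lower calls of the whole array fell too. The member count became 1 with normexp, against 19 of 262 miRNAs called lower. With only the AAI day 6 and vehicle groups fitted it became 5, against 53 of 262. It became 6 with slide as a random block (consensus correlation 0.329) and 8 with slide as a fixed block, against 46 and 60 of 262. Leaving out 1 array gave 1 to 4 on day 6, 0 to 1 on day 4 and 0 in each of the other 4 comparisons. Of all tested miRNAs, 40 to 55 were then called lower on day 6, 1 to 8 on day 4 and 0 on day 2. Between AAI days, 5 to 28 were called lower for day 6 against day 2 and 1 to 4 for day 6 against day 4. For day 4 against day 2 it was 0. With slide as a fixed block the counts were 5 on AAI day 4 against vehicle, 8 for AAI day 6 against day 2 and 6 for AAI day 4 against day 2. That fit called 9, 67 and 23 of 262 miRNAs lower in these comparisons. For AAI day 6 against day 2 the count was 3 with slide as a random block and 1 each with total signal as the scale, quantile normalization and the deposited series table. In the same order, 26, 26, 10 and 13 of 262 miRNAs were called lower. Within the slides that held both groups 0 members were called in 4 of 4 comparisons, but slide 2 has only 1 vehicle array, assumed to vary like the others, set against 2 arrays of AAI day 4 (median change -0.52) and 5 of day 2 (-0.15), so the lack of calls says little. No comparison within a slide was possible for day 6 against vehicle.

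The family share in vehicle, 24.3% by the main processing, was 15.2% with normexp and 18.0% with the software's totals. The difference in family share on AAI day 6 (-3.05 points) became -1.75 with normexp and -1.93 with the software's totals. That on day 2 (-0.32) became 0.595 with normexp. Leaving out 1 array gave -3.33 to -2.82 on day 6, -3.37 to -1.67 on day 4 and -0.590 to -0.0854 on day 2.

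Signs changed mostly with the scaling, where 1 factor per array moves every miRNA alike and says nothing particular to the members. With no scaling the log2 changes above 0 were let-7a-5p 0.21, let-7b-5p 0.22, let-7c-5p 0.25, let-7d-5p 0.19, let-7e-5p 0.20, let-7f-5p 0.19, let-7i-5p 0.28 and miR-98-5p 0.21 on AAI day 2, let-7a-5p 0.12, let-7b-5p 0.093, let-7c-5p 0.15, let-7d-5p 0.10, let-7e-5p 0.039, let-7f-5p 0.13, let-7i-5p 0.28 and miR-98-5p 0.19 on day 4, and let-7a-5p 0.11, let-7b-5p 0.068, let-7c-5p 0.15, let-7d-5p 0.019, let-7f-5p 0.13, let-7i-5p 0.28 and miR-98-5p 0.20 on day 6. With the labelling spike-in as the scale they were let-7a-5p 0.17, let-7b-5p 0.18, let-7c-5p 0.20, let-7d-5p 0.14, let-7e-5p 0.16, let-7f-5p 0.15, let-7i-5p 0.23 and miR-98-5p 0.16 on day 2, let-7i-5p 0.087 on day 4, and let-7c-5p 0.026, let-7f-5p 0.011, let-7i-5p 0.16 and miR-98-5p 0.077 on day 6. With quantile normalization they were let-7c-5p 0.017, let-7d-5p 0.0093, let-7f-5p 0.017 and let-7i-5p 0.065 on day 2, let-7i-5p 0.038 on day 4 and let-7i-5p 0.078 on day 6. With the deposited series table they were let-7c-5p 0.045, let-7d-5p 0.0040, let-7f-5p 0.022 and let-7i-5p 0.063 on day 2, let-7i-5p 0.035 on day 4 and let-7i-5p 0.074 on day 6. With the software's totals they were let-7a-5p 0.0029, let-7b-5p 0.012, let-7c-5p 0.038 and let-7i-5p 0.070 on day 2, let-7i-5p 0.011 on day 4, and let-7i-5p 0.13 and miR-98-5p 0.043 on day 6. On day 2, let-7i-5p was 0.041 with total signal as the scale, 0.028 with normexp, 0.0057 with the median as the scale, 0.011 with slide as a random block and 0.023 without AAI day 2 array 3. let-7c-5p on day 2 was 0.0089 with total signal as the scale and 0.012 with normexp. On day 4, let-7i-5p was 0.0034 without AAI day 4 array 2. With each array left out in turn, let-7i-5p lay between -0.031 and 0.023 on day 2 and between -0.12 and 0.0034 on day 4. The cause was not tested.

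A replicate block called 3 members lower on AAI day 6 against vehicle, where it called 47 of 262 miRNAs lower, and 0 members in each other comparison. Of the 262, it called 16 lower for AAI day 6 against day 2. It called 2 lower each for AAI day 4 against vehicle and AAI day 6 against day 4. For AAI day 2 against vehicle and AAI day 4 against day 2 it called 0 lower. The shared numbers come from the titles only, and same-numbered arrays of different groups did not deviate together, with a median r of -0.07 over 30 pairs. The number of arrays and the uneven slides limit what can be read from changes of this size, and probes 1 base apart may share targets.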

Other observations

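The software's own total for a miRNA matched the sum of its probe signals for the 8 guide strands, with a ratio of 1.00 on all arrays, but not for some passenger strands. For let-7d-3p the deposited total was 632 to 1319 times the sum of its own probes. On 20 of 20 arrays it equalled the total of let-7c-5p, a guide strand from another locus, to within 1%, with an excess of 2.76 to 6.82 units. Those 2.76 to 6.82 units compare with 5.02 to 8.45 units for the strand's own probes. For let-7a-1-3p the total was 174 to 284 times its own probes on all arrays. For let-7b-3p it was over 10 times its own probes on 2 of 20 arrays only, AAI day 2 array 5 and AAI day 4 array 1. Of the 719 miRNAs, 81 had such a total on at least 1 array and 6 on all arrays. Read from that column, let-7d-3p would look like one of the brightest miRNAs of the kidney.

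The array also held 4 entries named rno-miR-3596a to rno-miR-3596d. In RefSeq, rno-miR-3596d lies opposite the let-7f-5p sequence on chromosome 17. These 4 entries were detected on 0 of 20 arrays.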
